A study of Homo sapiens with 4 samples.

Results

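The genes described here encode the proteins of the cytosolic ribosome. They were identified by gene symbol, with no measured value in the rule, as every probe that the platform's probe-gene table names RPL or RPS with a number, or RPSA, RPLP0, RPLP1, RPLP2 or FAU. Mitochondrial ribosomal proteins and S6 kinases were left out. The array held 67 such probes for 28 genes among 15246 probes, and 62 probes of 27 genes had a value on all 4 arrays, out of 3589 genes measured on all 4. Of these 27 genes, 13 belong to the large and 14 to the small subunit. The remaining gene, RPL7L1, lacked a value on 1 array. Of the genes to be described by role, RPSA, FAU, RPLP0, RPLP2, RPS27A, RPS19, RPS27 and RPS27L were not among the measured members.

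The ribosome is built from a large subunit, which joins amino acids, and a small subunit, which reads the messenger RNA, and each carries its own set of proteins. Ribosomal protein messengers are among the most abundant in growing cells. Most of them begin with a 5′ terminal oligopyrimidine (TOP) tract, a C followed by further C or T bases, through which the mTOR pathway adjusts their translation together. In lymphoma cells with high MYC activity the making of ribosomes is a large part of growth.

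OCI-Ly3 is an established human cell line from a diffuse large B-cell lymphoma, of the class named after activated B cells. It was made to express a short hairpin RNA against IKKa by adding doxycycline at 20 ng/ml. IKKa, encoded by CHUK, and IKKb are the kinases of the IkB kinase complex, which switches on NF-kB. On each of 4 two-colour arrays, Cy5 cDNA of doxycycline-treated cells was hybridised with Cy3 cDNA of cells without doxycycline, with no dye swap. Without inhibitor the doxycycline lasted 2 days on 1 array and 3 days on the other. In the other pair MLN120b, which inhibits IKKb, was present in both channels at 12.5 uM, over 3 h on the 2-day array and over 24 h on the 3-day array. The series title names the question of whether IKKa makes up for IKKb in classical NF-kB signalling. No array of doxycycline-treated cells without the hairpin was analysed here, so the drug and the hairpin cannot be told apart.

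The values were taken as log2 ratios of doxycycline over no doxycycline in the likely direction. That direction rests on the usual Cy5 over Cy3 order and on CHUK lying below 0 on all 4 arrays. If the direction were turned, every "above 0" below would read "below 0", and the reverse. CHUK stood at -0.59 (2 days) and -0.87 (3 days) in the pair lacking inhibitor, and its values in the inhibitor pair were -1.30 and -1.01. In the limma test of group means its Benjamini-Hochberg adjusted p was 0.155 without and 0.013 with inhibitor. Of all genes, 25.8% lay below 0 on all 4 arrays. The base 2 was taken as likely from the range of the values, which does not settle it. All fold values below depend on it. Over all 3589 genes the array medians lay between -0.060 and -0.0073, and the median absolute deviation rose from 0.109 on the 2-day array without inhibitor to 0.259 on the array with 24 h of inhibitor. Ratios carry no expression level, so the B-cell identity of the line could not be checked. Among marker lists the medians by array ran from -0.091 to 0.035 for 6 of 7 B-cell genes, 0.062 to 0.29 for 5 of 7 T-cell genes and -0.059 to 0.053 for 4 of 8 myeloid genes. Their part in the ribosomal values was not tested.

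The starts of the ribosomal protein genes shared a sequence feature that the choice by name did not use. A start was counted when its first base was C and the next 4 were each C or T. RefSeq promoter windows (GRCh38.p14) were found for 21 of the 27 genes, on 15 chromosomes. Of these 21, 17 (81.0%) had at least 1 such start, against 5.14% of 27305 genes in the table. Among the 2918 matched genes that were measured and are not members, the share was 7.75%. Allowing the tract to begin within 5 bases to either side gave the same 17 genes, 25.2% of the table and 30.7% of those measured genes. In RPL27, RPL9, RPS29 and RPS4X no such run began at a listed start or within 5 bases of one. This says only that it was not found at those positions. RPL37, RPL5, RPL8, RPS15A, RPS2 and RPS20 were not in the table. The 25 bases around the start are shown for the lowest gene (RPS3), another low gene (RPS9), 2 of the high genes (RPL22L1 and RPS21), its paralogue RPL22, and RPS6, the substrate of the S6 kinases. Capitals mark the unbroken run of C and T from the listed start onward.
RPS3 (chr11:75399513-75399537, + strand): cacttCCTTTCCTTTCagcggagcg
RPS9 (chr19:54200853-54200877, + strand): cgcgcCTCTTTCTCagtgaccgggt
RPL22L1 (chr3:170870176-170870200, - strand): gcttcCTCTCTgctctcgcggccga
RPS21 (chr20:62387098-62387122, + strand): tgcttCCTTTCTCTCTCgcgcgcgg
RPL22 (chr1:6199576-6199600, - strand): acctcCCTTTCTaactccgctgccg
RPS6 (chr9:19380217-19380241, - strand): tggccCTCTTTTCCgtggcgcctcg
The run was 11 bases long in RPS3 and 6 in RPL22L1, so genes at opposite ends of the measured range both carried it.

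Most ribosomal protein genes had ratios within 1.5-fold, and a larger share of their group means lay above 0 than among all genes. Under doxycycline alone the 27 genes had a median of 0.21 (2 days) and 0.0066 (3 days), and in the inhibitor pair the medians were 0.16 (3 h) and 0.023 (24 h). Without inhibitor 20 of the 27 group means were above 0, against 44.1% of all genes, and 7 below, against 55.9%. With inhibitor 17 were above, against 48.4%, and 10 below, against 51.6%. On all 4 arrays 12 genes lay above 0, against 15.5% of all genes, and 4 lay below, against 25.8%. With array medians set to 0 these counts were 14 (20.2% of all genes) and 4 (22.4%). The interquartile range of the members was 0.23 on the 2-day and 0.25 on the 3-day array without inhibitor, where that of all genes was 0.22 and 0.36. With inhibitor it was 0.38 and 0.29, against 0.33 and 0.52. Neither group had a member past 1.5-fold the same way at both times, against 0.919% of all genes without and 3.23% with inhibitor.

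**Figure D1:**
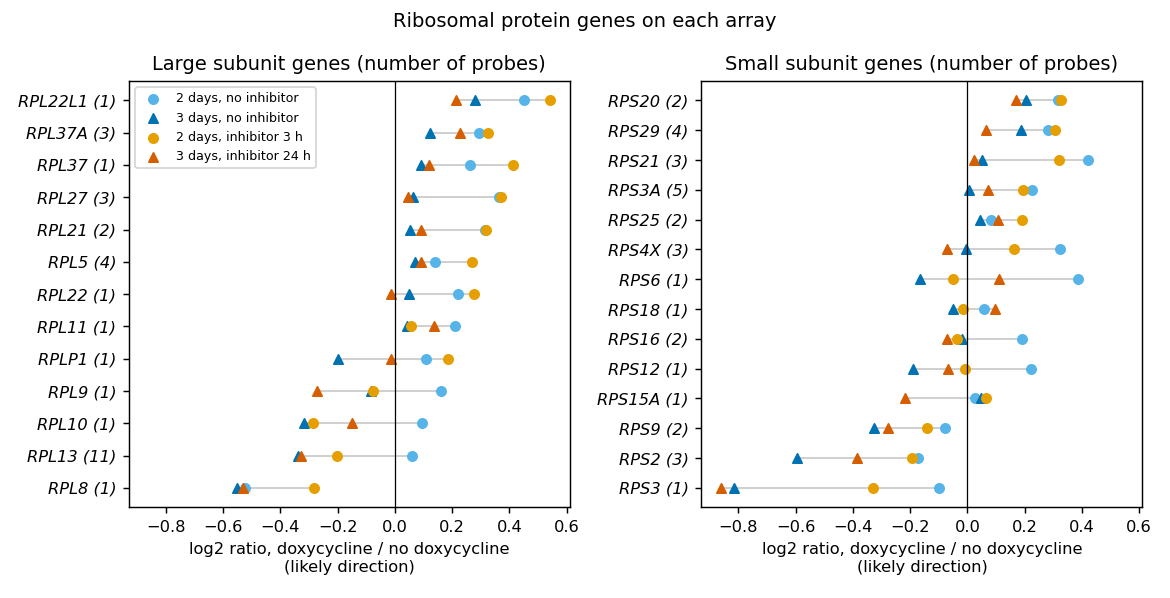
Log2 ratio (horizontal axis) of each large subunit (left) and small subunit (right) gene, 1 point per array, with the number of probes in brackets and grey lines from the lowest to the highest array. RPS3, RPL8, RPS2 and RPS9 lie below 0 on all 4 arrays, and most triangles (3 days) lie left of the circles (2 days).

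No ribosomal protein gene passed the test in any of the 4 comparisons of limma across all genes (Benjamini-Hochberg adjusted p under 0.05). Without inhibitor 0% of the 3589 genes were called, with inhibitor 4.57%, for the difference between them 0% and for 3 minus 2 days 0%. At an unadjusted p under 0.05 the members numbered 3 without inhibitor (11.1% of all genes), 4 with inhibitor (28.3%), 0 for the difference (4.82%) and 3 for the days (20.3%). The smallest adjusted p of a member was 0.212 (RPL8), 0.0833 (RPL8), 0.999 and 0.208 (RPS3) in that order. The median standard error of a member was 0.13 in a group mean, so changes of the size seen in most members were not detectable with 4 arrays. The arrays of a group are different times and nothing in the labels says that they came from separate cultures, so the spread behind these p-values holds both time and technical variation.

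The lowest values belonged to a few proteins of the small subunit and of the body of the large one. RPS3, a protein of the small subunit's head at the messenger entry, which is also known as a partner of NF-kB p65, had a ratio of -0.099 on the 2-day and -0.82 on the 3-day array of doxycycline alone, then -0.33 and -0.86 with 3 h and 24 h of inhibitor. It was the lowest member on 3 of the 4 arrays, and both 3-day values lay beyond 1.5-fold. The group means of RPS3, -0.46 ± 0.51 (SD, n = 2) for doxycycline alone and -0.59 ± 0.38 with inhibitor, correspond to 1.37-fold and 1.51-fold lower ratios (limma adjusted p = 0.462 and 0.113). The spread between days was about as large as the mean. RPS3 rested on 1 probe.

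RPL8, which lies next to the peptidyl transferase centre of the large subunit, was low at both times: -0.52 and -0.55 without inhibitor, -0.28 and -0.53 with it. Its mean without inhibitor, -0.54 ± 0.020 (SD, n = 2), differed least between its arrays of these low genes, and it too rested on 1 probe (limma adjusted p = 0.212). With inhibitor the mean was -0.41 ± 0.17 (adjusted p = 0.0833). Without inhibitor RPL8 passed when arrays were scaled to equal spread (limma adjusted p = 0.0214), where 5.32% of all genes did. With any array left out, 1 of the groups held a single array, so only effect sizes are given for those fits. The means without inhibitor, -0.54 for RPL8 and -0.46 for RPS3, do not use the inhibitor arrays, so leaving either of those out could not change them. With inhibitor RPL8 was at -0.53 and RPS3 at -0.86 without the 3 h array. Without the 24 h array they were at -0.28 and -0.33. When the day of doxycycline was fitted as a block, RPS3 (0.0145), RPL8 (0.0289) and RPL22L1 (0.0314) passed with inhibitor, 3 of 27 members, where 25.3% of all genes did.

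RPS2 and RPS9 are small subunit proteins of the messenger entry channel. RPS2 had -0.17 and -0.60 without and -0.19 and -0.39 with inhibitor over 3 probes, of which 1 stood near 0 (mean of 4 arrays -0.047) and the others at -0.43 and -0.54. RPS9 had -0.078 and -0.33 without and -0.14 and -0.28 with inhibitor. Both genes were below 0 on every array, and their mean ± SD without inhibitor was -0.38 ± 0.30 for RPS2 and -0.20 ± 0.18 for RPS9. RPL13, a large subunit protein with 11 probes, was above 0 at 2 days without inhibitor (0.060) and below it on the other arrays (-0.34 at 3 days, -0.20 with 3 h and -0.33 with 24 h of inhibitor). RPL10, which joins the large subunit in one of its last steps of maturation, showed the same signs at 0.094, -0.32, -0.29 and -0.15. RPL9 did so too, at 0.16, -0.082, -0.077 and -0.27.

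The highest values belonged to RPL22L1, the paralogue of RPL22. Doxycycline alone gave 0.45 (2 days) and 0.28 (3 days), and the inhibitor pair gave 0.54 and 0.21. It was the highest member on 3 arrays and second to RPL37A on the array with 24 h of inhibitor. Its mean was 0.37 ± 0.12 (SD, n = 2) without and 0.38 ± 0.23 with inhibitor, 1.29-fold and 1.30-fold higher (limma adjusted p = 0.37 and 0.114, 1 probe). RPL22, which shares its place in the ribosome with RPL22L1 and is also known for binding a small RNA of Epstein-Barr virus, had 0.22, 0.051, 0.28 and -0.014 in the same order. The paralogue lay above RPL22 on each of the 4 arrays. Other high members were RPS20 of the small subunit's head (0.32, 0.20, 0.33 and 0.17), RPL37A (0.29, 0.12, 0.32 and 0.23) and RPL37 (0.26, 0.092, 0.41 and 0.12). RPL22L1, RPS20, RPL37A and RPL37 were among the 12 of 27 members above 0 on all 4 arrays, against 15.5% of all genes.

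Members with known roles outside protein synthesis stood between these ends. RPL5 and RPL11 form the 5S ribonucleoprotein with 5S RNA and, when free, bind MDM2 and so raise p53. RPL5 had 0.14 and 0.070 without and 0.27 and 0.092 with inhibitor, with 3 of its 4 probes between 0.21 and 0.24 on average and the remaining one at -0.11. RPL11 had 0.21, 0.043, 0.056 and 0.14, so both genes of this particle were above 0 on every array. RPS6, whose phosphorylation by the S6 kinases reports mTOR activity, had 0.39 (2 days) and -0.16 (3 days) under doxycycline alone, then -0.051 and 0.11, so its sign differed between days in both pairs, in opposite order. RPLP1 of the acidic stalk that recruits elongation factors had 0.11, -0.20, 0.19 and -0.012.

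Ratios were lower at 3 than at 2 days of doxycycline in most of these genes. Without inhibitor 26 of 27 were lower at 3 days, against 60.7% of all genes, and RPS15A (0.026 and 0.047) was the exception. With inhibitor, where 3 days went with 24 h and 2 days with 3 h of MLN120b, 23 were lower, against 55.8%. In both pairs 22 of 27 were lower, against 43.2%, and in 20 of 27 both 3-day values lay below both 2-day values, against 34.0%. With array medians set to 0 the first of these counts was 20 (38.4% of all genes), and with arrays scaled to equal spread 21 (37.2%). All 14 members with 2 or more probes were lower in both pairs, against 47.9% of all genes with 2 or more probes. So were 50 of the 62 member probes taken singly, against 45.1% of 6796 probes. The median difference was -0.22 without and -0.19 with inhibitor, and -0.070 and -0.041 over all genes. By the day term of the fit over both pairs 26 members were below 0, against 58.0% of all genes, and 1 (RPS18) was above, against 42.0%.

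**Figure D2:**
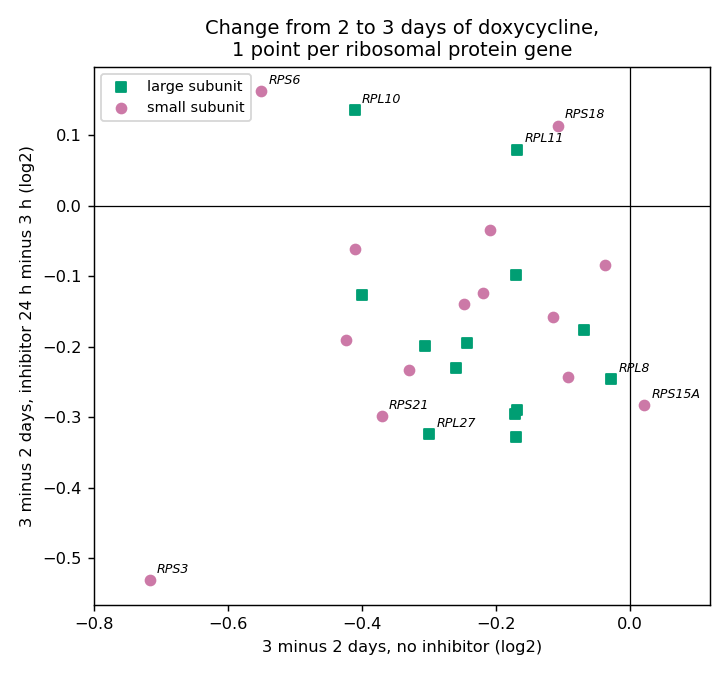
Difference between 3 and 2 days of doxycycline for each ribosomal protein gene, without inhibitor (horizontal axis, log2) and with inhibitor (vertical axis, log2), squares for the large and circles for the small subunit. In the lower left quadrant lie the 22 genes lower at 3 days in both pairs, with RPS3 the farthest at -0.72 and -0.53.

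In that fit RPS3 differed most, by -0.62 (SE 0.12), a 1.54-fold lower ratio at 3 days (limma adjusted p = 0.208). RPS21 followed with -0.33 (SE 0.12), from 0.42 to 0.052 without and 0.32 to 0.023 with inhibitor (adjusted p = 0.227), and RPL27 with -0.31, from 0.36 to 0.063 and 0.37 to 0.046 (0.237). In these 3 genes, named for their large day terms, the values did not overlap between days. Both 3-day values lay below both 2-day values in 20 of the 27 members and in 34.0% of all genes. RPS2 was next at -0.31 (0.249). The smallest day terms were those of RPS18 (0.0030), RPL11 (-0.044), RPS25 (-0.061) and RPS16 (-0.12). RPS18, RPL11, RPS6 and RPL10 were lower at 3 days without inhibitor and higher with it. The largest split was that of RPS6, -0.55 without and 0.16 with inhibitor. The day test had 1 residual degree of freedom and none of the 3589 genes passed it. Whether arrays share a preparation of untreated RNA was not stated in the labels.

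Large and small subunit genes covered overlapping ranges on every array. The large subunit median exceeded the small subunit median by 0.0048 (2 days) and 0.062 (3 days) under doxycycline alone, and by 0.24 and 0.069 with 3 h and 24 h of inhibitor. The mean of these differences was 0.094 ± 0.10 (SD, n = 4 arrays), no larger than its spread. With subunit means in place of medians it was 0.056 ± 0.034, above 0 on all 4 arrays and larger than its spread between arrays. The arrays hold the same genes, so these SDs do not measure the spread between genes. The SD between member genes ran from 0.21 to 0.26 by array. The difference between subunits was not tested. The widest gap, on the 3 h array, lay between 0.27 for the large and 0.029 for the small subunit. On that array 9 of 13 large and 7 of 14 small subunit genes were above 0, against 46.5% of all genes. On the 2-day array of doxycycline alone 12 of 13 and 11 of 14 were, against 48.0%. The mean difference of medians was 0.046 without the 3 h array and 0.029 with probes that had partial values. The median over genes of the 3 minus 2 day difference was -0.17 (large) and -0.23 (small) without inhibitor, and -0.20 and -0.15 with it. These are not differences between the subunit medians. Of the small subunit, the 7 measured proteins of the head had medians of 0.19, -0.018, -0.0080 and 0.064 in the order given above, and the other 7 had 0.23, -0.0043, 0.066 and -0.072.

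**Figure D3:**
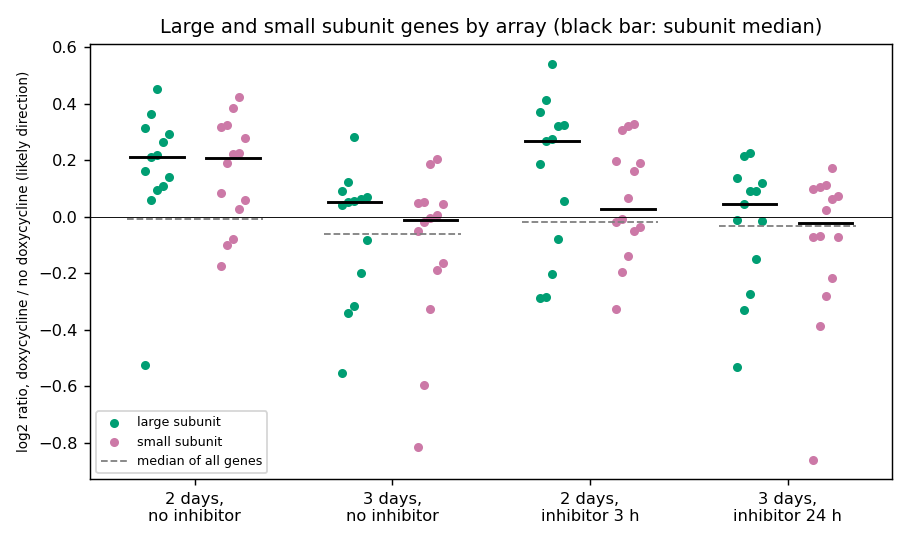
Log2 ratio of each large (green) and small (pink) subunit gene by array, with black bars at the subunit medians and dashed lines at the median of all genes. The clouds overlap on all 4 arrays, and both medians are nearer to 0 at 3 days than at 2 days without inhibitor.

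No member passed the test of the arrays with inhibitor against those without it. The difference between group means had a median of -0.0078 over the 27 genes and 0.020 over all genes. Of the members 16 were below 0, against 45.5% of all genes, and 11 above, against 54.5%. The largest negative difference was that of RPL9 (-0.21, SE 0.17), followed by RPS16 (-0.14), RPS3 (-0.14) and RPL13 (-0.13). The largest positive ones were those of RPLP1 (0.13), RPL8 (0.13), RPS2 (0.095) and RPL37 (0.088). All had a limma adjusted p of 0.999. RPS16 was the only member with both inhibitor values below both others, against 11.2% of all genes, and RPS25 the only one with both above, against 19.4%. The median moved to 0.11 without the 2-day array and to -0.11 without the 3-day array of doxycycline alone, so its sign depended on which array was used.

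In the mean of 4 arrays the SD between probes of a gene was somewhat smaller than that between genes. Over the 14 genes with 2 or more probes (49 probes), the pooled SD between probes of a gene was 0.140 for the mean of 4 arrays. The SD between gene means was 0.189. By array the SDs were 0.171 between probes and 0.173 between genes (2 days) and 0.190 and 0.227 (3 days) without inhibitor. With inhibitor they were 0.170 and 0.210 (3 h) and 0.151 and 0.188 (24 h). The SD between probes and that between genes are not like measures, since a gene mean averages 2 to 11 probes, and RPL13 alone gave 11 of the 49 probes. RPL13 spanned -0.46 to 0.016 over its 11 probes, of which 11 were lower at 3 days without and 10 with inhibitor. Thus its probes differed in level of the ratio while nearly all moved the same way with time. RPS16, RPS20 and RPS25, with 2 probes each, had probes within 0.03 of each other in the mean of 4 arrays. On single arrays they lay farther apart, RPS20 at 0.065 and 0.28 with 24 h of inhibitor and RPS16 at 0.15 and 0.23 on the 2-day array of doxycycline alone. The 13 members on 1 probe, RPS3, RPL8 and RPL22L1 among them, have no such check. As background, many ribosomal protein genes have processed pseudogenes with near-identical sequence, and cDNA probes cannot tell these apart. Of the 5 probes lacking a value on 1 array, RPL7L1 had 0.073 on the 2-day array of doxycycline alone and 0.010 and 0.0080 in the inhibitor pair.

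**Figure D4:**
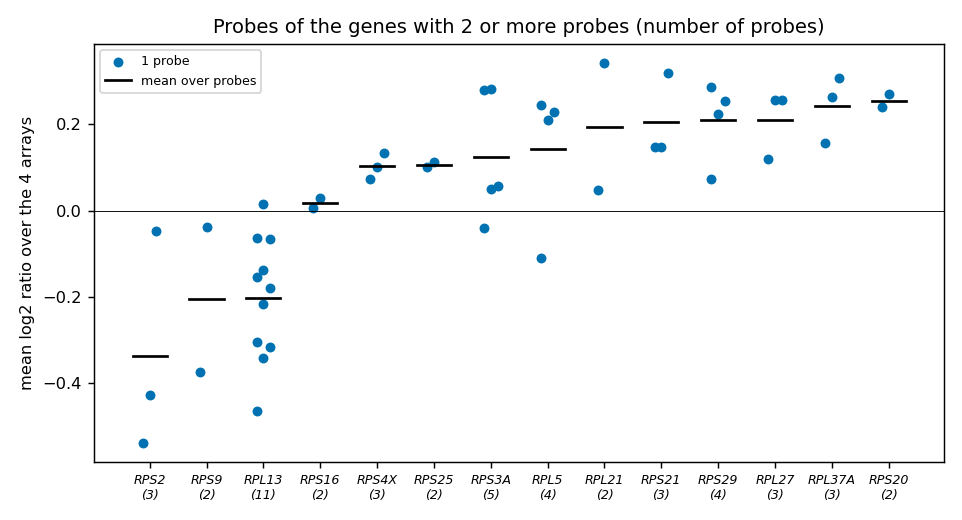
Mean log2 ratio over the 4 arrays for each probe (points) of the 14 genes with 2 or more probes, with a bar at the mean over probes and the number of probes in brackets. RPL13 spans -0.46 to 0.016, while the probe means of RPS16, RPS20 and RPS25 lie within 0.03 of each other.

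Other gene lists of protein synthesis had lower medians than the ribosomal protein genes on each array. Of these lists 1 gene passed, in 1 comparison. A further 10 messengers with TOP tracts, such as those of elongation factors, had medians of 0.14, -0.12, -0.076 and -0.11 in the order 2 and 3 days without, then 3 h and 24 h with inhibitor. The 12 mitochondrial ribosomal proteins had -0.042, -0.14, -0.064 and -0.12, and the 10 S6 kinases and regulators 0.048, -0.17, -0.032 and -0.22. Initiation factors (14 measured) were close to 0 at 2 days (-0.0028 and -0.060) and low at 3 days (-0.34 and -0.31). Each of these lists had a lower median at 3 than at 2 days in both pairs. The median of all 3589 genes was lower too, from -0.0073 to -0.060 without and from -0.019 to -0.033 with inhibitor. The lists were only partly measured, with 10 of 22 TOP messengers, 14 of 34 initiation factors and 10 of 14 S6 kinases and regulators. All 12 mitochondrial ribosomal proteins on the array were measured. No test of a list against another was made.

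Nucleolar ribosome biogenesis genes, which make and export the subunits, had the lowest medians, at -0.086 and -0.39 without and -0.29 and -0.51 with inhibitor. Of 14 measured (46 listed), 12 group means were below 0 without inhibitor, against 55.9% of all genes, and 10 with it, against 51.6%. With inhibitor 1 of the 14 passed, lower, where 4.57% of all genes were called. That gene was NMD3, the adaptor that exports the large subunit and leaves it as RPL10 is fitted. It had -0.75, -1.43, -1.65 and -1.96 on 1 probe (limma adjusted p = 0.0088 with inhibitor), against -0.32 to 0.094 for RPL10. NCL, nucleolin, had -0.35, -0.88, -0.56 and -1.33, and NOP56, of the small nucleolar RNA particles, -0.11, -0.80, -0.70 and -0.80. NMD3, NCL and NOP56 were named for having the lowest means of the list with inhibitor. NCL and NOP56 lay below the median of the ribosomal proteins on each array, which that choice favours on the inhibitor arrays.

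**Figure D5:**
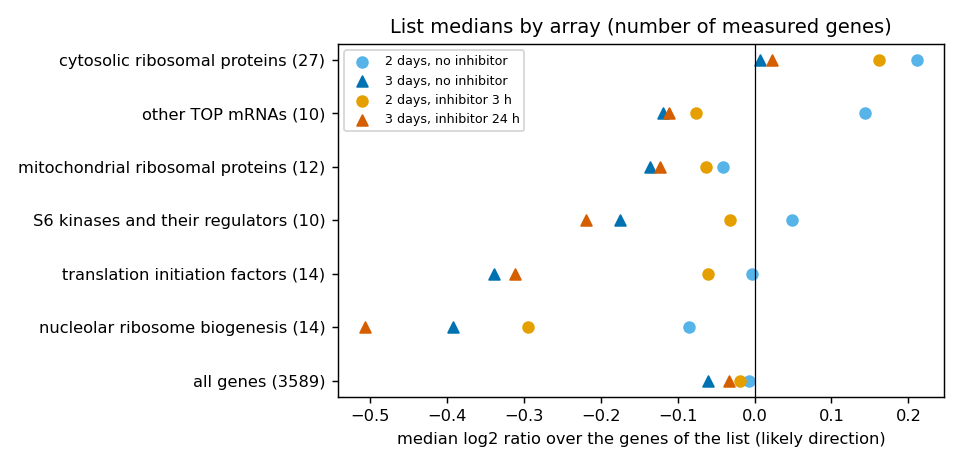
Median log2 ratio (horizontal axis) of each list on the 4 arrays, with the number of measured genes in brackets. The cytosolic ribosomal proteins have the highest median on each array, and the nucleolar biogenesis genes the lowest.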

How the data were processed

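The deposited values are log2 ratios, 1 per probe and array, as the authors deposited them, with base and direction not stated. How the spots were corrected, normalized and filtered, and why some cells are empty, was not stated in the labels. With no intensities used, precision is limited by there being 4 arrays.

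Probes were named by the platform annotation (10169 with 1 symbol, 4 with several, 5073 with none) and updated by gene ID to RefSeq names (10128 matched). Probes with a value on all 4 arrays were averaged per gene. One limma 3.58.1 model (R 4.3.3) held a mean per inhibitor group (2 residual degrees of freedom, prior 4.98), and a second added the doxycycline day (1 and 4.35). Tests were two-sided, with Benjamini-Hochberg adjustment over 3589 genes. Both fits were also run on simulated data with independent noise on each array. That setting lacks the different times within a group, so it does not test the fits on this design.

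Members and lists were chosen with earlier results of these data known. Named were CHUK, the 4 highest and 4 lowest members of each comparison, members with set roles and up to 3 genes of each further list, the lowest with inhibitor; other members are named where they form a count. The alternatives were centring, scaling, partial values, probe medians, genes on 2 or more probes, the day as a block, no group term, a robust prior, an adjusted p under 0.10, paralogues left out and each array left out.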

Additional observations from a re-analysis of the deposited data

Results flagged for a closer look

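RPLP1 lay above 0 on both 2-day arrays (0.11 and 0.19) and below 0 on both 3-day arrays (-0.20 and -0.012), a day term of -0.25 with a limma adjusted p of 0.286. RPS4X, a small subunit protein encoded on the X chromosome, did the same, with 0.33 and 0.16 at 2 days against -0.0043 and -0.072 at 3 days, a day term of -0.28 (limma adjusted p = 0.251). The small subunit median lay above 0 at 2 days (0.21 and 0.029) and just below 0 at 3 days (-0.011 and -0.023), a difference of -0.13 between the days. The small subunit proteins outside the head did so as well, with a difference of -0.18. The 2 differences of medians were not tested. The 3-day value of RPS4X without inhibitor and that of RPLP1 with inhibitor lay close to 0. Both 3-day values lay below both 2-day values in 20 of 27 members, RPLP1 and RPS4X among them, and in 34.0% of all genes. The share of all genes that changed sign in this way is not given.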

How the results depend on the processing

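With 1 array of a group left out, the members' median went from 0.105 to 0.0066 or 0.211 without inhibitor and from 0.087 to 0.023 or 0.162 with it, since only 1 array then remains. Counts of calls with an array left out are not given, since 1 group then held 1 array. In the other fits the count of called members without inhibitor was 0, or 1 with arrays scaled to equal spread (5.32% of all genes). With inhibitor it was 3 with the doxycycline day as a block (25.3% of all genes), 1 at an adjusted p under 0.10 (16.4%) and 0 otherwise. As shares of the 27 members, both counts above 0 with inhibitor were below those of all genes. The median difference between inhibitor groups moved to -0.084 with scaling and ran from -0.11 to 0.11 with an array left out. The median of 3 minus 2 days was -0.16 with array medians set to 0, -0.27 with scaling and -0.22 in the pair without inhibitor alone (-0.35 there with scaling, chosen after seeing the data). The counts on centred and scaled arrays for genes lower at 3 days or above 0 throughout were also chosen after seeing the data.

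No member was called in the main fits, so none of the sign changes below concerned a gene called there. With an array left out, RPLP1 ran from -0.20 to 0.11 and RPS6 from -0.16 to 0.39 without inhibitor, and with it RPL22 from -0.014 to 0.28, RPLP1 from -0.012 to 0.19 and RPS6 from -0.051 to 0.11. Differences between groups ran from -0.33 to 0.074 for RPL13, -0.060 to 0.24 for RPL37, -0.021 to 0.29 for RPLP1, -0.12 to 0.31 for RPS2 and -0.49 to 0.22 for RPS3. Under scaling the difference was -0.00044 for RPL37 and 0.020 for RPS3. The day term of RPS18 was -0.030 with scaling and -0.13 with partial values, where a second probe enters. Over all genes, calls without inhibitor went from 0 to 191 with scaling and 56 with the day as a block. On genes with 2 or more probes they were 2. With inhibitor they went from 164 to 908 with the day as a block and 109 with medians set to 0. For the difference they reached 3 with partial values. For the days they reached 3 with scaling, 6 with partial values and 10 on genes with 2 or more probes. The causes were not tested.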
